A study of Mus musculus with 8 samples.

Results

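The comparison asks which differences between large and small intestine are present in pups that lack claudin-7, a membrane protein of epithelial junctions. It rests on the 4 single-colour arrays of knockout (KO) pups, 2 of large and 2 of small intestine, out of 8 arrays in the series. The other 4 arrays hold the same segments of wild-type (WT) pups and are given as reference values. All groups are 129SV mice of 3 days without treatment, and total RNA came from fragments of 2 cm. The knockout is labelled only as claudin-7 KO, the position of the fragment along each segment is not given, and whether arrays with the same number (2 or 3) come from 1 pup is not stated. P-values therefore measure the spread between these samples, whose source is not known.

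Levels are log2 of the spot signal over the array's own 75th percentile, so that 0 is that percentile, and values are given for replicate 2 and then replicate 3. A difference is the large intestine mean minus the small intestine mean on this log2 scale, ± its standard error, with n = 2 arrays per segment. Genes "passed" where limma gave them an adjusted p under 0.05 (Benjamini-Hochberg over all 20133 genes tested), and "rose" or "higher" means passed with more signal in large intestine. Where neither array of the dimmer segment was well above background, the fold is a lower bound, written "at least". For that bound the dimmer segment is set, on each array, to the dimmest signal counted as well above background, or to the gene's reading where that is larger. An adjusted p printed beside a bound comes from the fit to the readings themselves, dim ones included, and does not test the bound. The number of arrays limits the precision (median standard error of a difference 0.28). In whole fragments, fewer cells of a type and less RNA per cell cannot be told apart.

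The targeted gene was examined first. Cldn7 was read by 1 probe (mm9 chr11:69781255-69781314), and its place relative to the deletion is not given. It read 2.21 and 0.94 on the KO small intestine arrays and 2.08 and 2.16 on the KO large intestine arrays, against 5.89 and 5.93 in WT small and 5.70 and 5.56 in WT large intestine. All 4 KO arrays lay below all 4 WT arrays. Between the KO segments Cldn7 differed by 0.54 ± 0.39 and did not pass (adjusted p = 0.356). KO small intestine replicate 3 was the lowest array, and without KO small intestine replicate 2 the difference was 1.17 and passed (adjusted p = 0.0245).

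Between 62.2% and 71.1% of the probes were well above background on each of the 8 arrays. Some KO arrays of 1 segment stood apart in region-specific or foreign transcripts. Alb, serum albumin of the liver, read -7.16 and -8.38 in KO small and 5.23 and -5.06 in KO large intestine, so that it was high on KO large intestine replicate 2 alone. The summed level of 17 liver genes was 8.54 on that array and 6.01 on replicate 3. Amy2a5, a pancreatic amylase, read -7.70 and -8.38 in KO small and -3.86 and 2.05 in KO large intestine, and the pancreatic trypsin genes followed it on KO large intestine replicate 3. Fabp6, the bile acid binding protein of ileal enterocytes, read -7.38 and 1.46 in KO small and -0.84 and 1.56 in KO large intestine. The WT small intestine arrays were split in the same way (-5.81 and 1.72 in WT small and -1.40 and -1.73 in WT large intestine). Xist, transcribed from the inactive X, read -6.25 and -2.42 in KO small and -6.60 and -2.43 in KO large intestine. Both segments thus hold 1 Xist-high array. The Y-linked genes Ddx3y and Eif2s3y changed the other way. Replicate 3 minus 2 was -9.64 and -8.34 for them in KO small and -9.97 and -9.51 in KO large intestine. In WT it was 0.63 and 0.38 in small and 0.45 and 0.15 in large intestine. By these genes the KO replicates of each segment differed in sex, with no such change between the WT replicates. The part of sex in the results was not tested. Each group filled its own column of the single slide, so the effect of slide column cannot be told apart from that of group. The part of these transcripts in the results was not tested, and counts without each KO array are given below.

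The small intestine digests milk sugar, fat and protein at a brush border, and in the suckling pup its enterocytes also take up whole protein by endocytosis. The large intestine recovers salt and water behind a thick mucus layer made by goblet cells. Position along the gut is set by transcription factors, among them GATA4 in the proximal gut and the posterior Hox genes in the colon. Claudin-7 lies along the basolateral side of the epithelium in both segments.

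Of 20133 genes, 3193 passed between KO large and KO small intestine (15.9%), 1664 higher in large intestine (8.27%) and 1529 lower (7.59%). These shares over all genes are the reference for the counts of every gene list below. The difference was over 16-fold for 179 of the higher and 193 of the lower genes, and 188 and 108 were not well above background on either array of the dimmer segment. The number of genes that passed was 2204 and 3062 without KO small intestine replicate 2 and 3, and 1893 and 1201 without KO large intestine replicate 2 and 3. It was 1887 without either WT large intestine array, and 1574 when the 4 KO arrays were fitted alone. The 1201 and 1574 include 1100 and 1509 of the 3193.

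The same regional direction was common in WT. Of the 1664 higher genes 1485 had the same sign in WT (89.2%) and 752 also passed there (45.2%, or 37.7% of the 1994 higher genes of WT). Of the 1529 lower genes 1227 had the same sign (80.2%) and 801 also passed (52.4%, or 40.1% of the 1996 lower genes of WT). The WT contrast alone had 3990 genes (19.8%). It uses other arrays but shares the estimate of spread. Opposite calls in KO and WT were found for 13 of the higher and 26 of the lower genes.

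**Figure D1:**
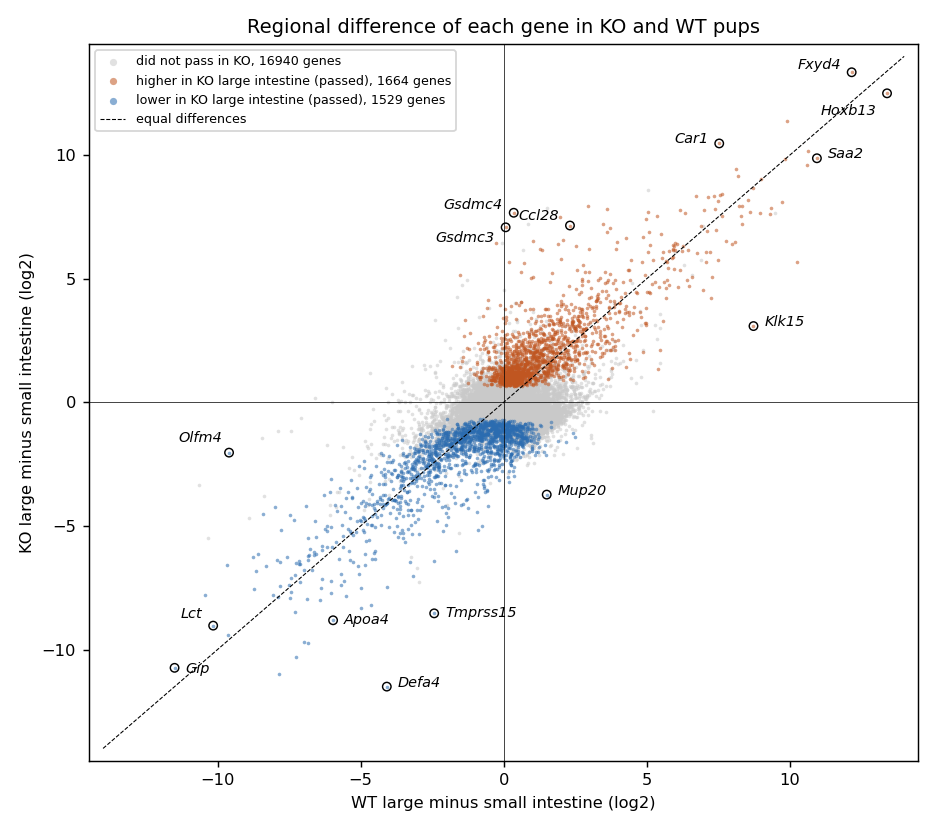
Each point is 1 of 20133 genes, placed by its log2 difference between large and small intestine in WT (horizontal axis) and in KO pups (vertical axis), coloured where it passed in KO, with the dashed line at equal differences. Fxyd4, Hoxb13 and Saa2 lie at the upper right and Gip and Lct at the lower left, while Gsdmc4 and Gsdmc3 sit near 0 on the WT axis.

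The 12 largest differences on the higher side, among genes measured on all 4 KO arrays, included Car1, Saa2 and Retnlb. Car1, a carbonic anhydrase of colonic enterocytes, read -3.73 and -4.31 on the KO small intestine arrays and 6.05 and 6.86 on the KO large intestine arrays. That is a difference of 10.48 ± 0.40 (1424-fold, adjusted p = 5.41e-05), against 7.54 in WT. Saa2, an acute-phase serum amyloid that colonic epithelium also makes, read -3.94 and -2.93 on the KO small intestine arrays and 6.30 and 6.58 on the KO large intestine arrays (9.88 ± 0.43, 940-fold, adjusted p = 8.54e-05). Retnlb, a resistin-like protein secreted by goblet cells, differed by 9.61 ± 0.44 (783-fold). Atp12a, the colonic proton-potassium pump, differed by 9.05 ± 0.57, Best2, a bicarbonate-conducting anion channel, by 8.15 ± 0.40, and Fa2h, which hydroxylates fatty acids for sphingolipids, by 7.84 ± 0.57. Slc10a2, the apical sodium-bile acid transporter, read -6.57 and -6.01 on the KO small intestine arrays and 0.25 and 2.25 on the KO large intestine arrays, so it was the large intestine that carried the higher signal (7.54 ± 0.60, 187-fold). Its WT difference was 5.37. Cyp2d34 (9.84 ± 0.25) and Cyp2d10 (8.37 ± 0.34) are near-identical P450 copies that a probe may not tell apart. The whey acidic protein gene Wfdc18 differed by 7.85 ± 0.49, and the other 2 of these 12 genes were Hoxa11os and Gsdmc4, described below. The adjusted p of the 12 ran from 3.10e-05 to 0.000693, and 11 of the 12 also passed in WT in the same direction.

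The 12 largest differences on the lower side included Lct, Apoa4 and Npc1l1. Lct, the lactase that splits milk sugar, read 6.85 and 4.66 on the KO small intestine arrays and -2.96 and -3.60 on the KO large intestine arrays. It was 523-fold lower in large intestine (-9.03 ± 0.66, adjusted p = 0.000514), with -10.15 in WT. Apoa4, an apolipoprotein of chylomicrons, read 7.61 and 6.95 on the KO small intestine arrays and -1.40 and -1.67 on the KO large intestine arrays (-8.82 ± 0.27, 450-fold lower, adjusted p = 4.36e-05). Npc1l1, the cholesterol importer, differed by -8.0 ± 0.59, the phosphate transporter gene Slc34a3 by -7.66 ± 0.56 and Bst1, an ectoenzyme of NAD metabolism, by -7.84 ± 0.50. Mcoln3, a channel of endosomes, differed by -7.51 ± 0.52 over the brighter of its 2 probes and by -2.96 over the probe that was well above background on all 4 KO arrays. Leap2, which encodes the ghrelin receptor antagonist, read 6.39 and 4.19 in KO small and -1.63 and -6.59 in KO large intestine, so its large intestine arrays differed by more than 4-fold between themselves (-9.40 ± 1.53, adjusted p = 0.00996). Leap2 is also made by liver, and Alb was high on the large intestine array where Leap2 was higher. Leap2 lost its call without KO small intestine replicate 2 (adjusted p = 0.0526). Anxa10, an annexin known from gastric epithelium, differed by -7.48 ± 1.08. The remaining 4 were alpha-defensin genes. All 12 also passed in WT in the same direction.

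Genes not well above background in 1 segment have only bounds. Fxyd4, a regulator of the sodium pump, was not well above background on either KO small intestine array and read 4.15 and 4.62 in KO large intestine, at least 2180-fold higher (adjusted p = 3.1e-05). Scnn1b, the beta subunit of the epithelial sodium channel, was at least 94.4-fold higher (adjusted p = 4.36e-05), Krt84, a keratin, at least 380-fold and Ppy, the hormone pancreatic polypeptide, at least 168-fold. Ceacam12 and the homeobox gene Six2 were at least 74.6-fold and at least 74.4-fold higher. In the other direction Gip, the incretin hormone of proximal K cells, was at least 481-fold lower in large intestine (2.47 and 1.22 in KO small and -8.95 and -8.83 in KO large intestine, adjusted p = 6.28e-05). Slc5a12, a lactate transporter, was at least 218-fold lower, Tmprss15, the enteropeptidase that activates trypsinogen, at least 185-fold, the receptor kinase gene Ros1 at least 105-fold and Rasal1 at least 73.7-fold. Tmprss15 read -0.24 and 1.18 on the KO small intestine arrays and -8.16 and -7.97 on the KO large intestine arrays, whereas its WT levels were -5.09 and -8.97 in WT small and -9.56 and -9.36 in WT large intestine.

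The 250 bases before the start of 4 of these genes are shown, 2 from genes lower in KO large intestine (Lct, Gip) and 2 from genes off in KO small intestine (Fxyd4, Scnn1b). They were read on the gene's strand from RefSeq promoters of GRCm38.p6, where 14246 of the 20133 tested genes had a match by symbol. Capitals mark exact matches on either strand to 3 short motifs: GATAA of GATA factors, the half-site GTTAAT of HNF1 and TTTAT of CDX factors.
Lct, chr1:128328319-128328568, minus strand: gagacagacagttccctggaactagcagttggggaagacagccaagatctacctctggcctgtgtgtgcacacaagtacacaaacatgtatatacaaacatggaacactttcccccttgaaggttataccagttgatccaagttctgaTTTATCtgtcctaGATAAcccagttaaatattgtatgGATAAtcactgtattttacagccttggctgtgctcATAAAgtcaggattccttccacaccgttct
Gip, chr11:96024295-96024544, plus strand: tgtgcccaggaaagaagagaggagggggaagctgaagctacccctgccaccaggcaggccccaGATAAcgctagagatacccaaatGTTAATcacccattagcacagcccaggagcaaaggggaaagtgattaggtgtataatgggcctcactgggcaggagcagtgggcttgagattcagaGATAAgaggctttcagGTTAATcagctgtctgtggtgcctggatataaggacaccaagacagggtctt
Fxyd4, chr6:117937336-117937585, minus strand: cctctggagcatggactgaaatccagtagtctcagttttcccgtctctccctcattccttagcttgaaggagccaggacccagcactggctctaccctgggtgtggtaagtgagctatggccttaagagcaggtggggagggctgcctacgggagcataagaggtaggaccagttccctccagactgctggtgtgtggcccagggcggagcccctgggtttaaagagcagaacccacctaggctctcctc
Scnn1b, chr7:121864788-121865037, plus strand: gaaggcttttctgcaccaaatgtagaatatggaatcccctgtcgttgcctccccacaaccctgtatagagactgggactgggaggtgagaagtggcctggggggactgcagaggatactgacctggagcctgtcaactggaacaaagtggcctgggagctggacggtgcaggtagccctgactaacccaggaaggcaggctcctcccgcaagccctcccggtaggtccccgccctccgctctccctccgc
The Lct window held 3 GATAA and 2 TTTAT matches, 1 pair of which overlaps in TTTATC, and the Gip window held 2 GATAA and 2 GTTAAT matches. The Fxyd4 and Scnn1b windows held none of the 3 motifs. The search and the matches by symbol left out the promoters of 1 chromosome. Among the 32851 promoters searched, 22.6% held GATAA, 6.43% GTTAAT and 37.3% TTTAT. Promoters of the tested genes held them in 17.3%, 5.1% and 28.2%. The shares were 20.0%, 6.55% and 31.4% for promoters of genes lower in KO large intestine and 18.9%, 6.16% and 33.4% for those of higher genes. A match is a string of letters and not a site.

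Transcription factors of gut position had members on both sides. Of 39 measured genes of the list 11 were higher and 9 lower in large intestine (median -0.42). Over all 20133 genes the shares were 8.27% and 7.59% and the median was -0.03. Gata4, the factor of the proximal intestine, read 1.87 and 0.96 on the KO small intestine arrays and -4.70 and -5.43 on the KO large intestine arrays (-6.48 ± 0.39, adjusted p = 0.000260). Its KO and WT differences were on the same side (-7.82 in WT). Creb3l3, a membrane-bound factor of lipid metabolism (-4.26 ± 0.39, adjusted p = 0.00120), was lower as well. The limb and gut factor gene Tbx3 differed by -1.57 ± 0.23 (adjusted p = 0.00677). The posterior homeobox gene Evx1 was at least 42.1-fold higher (adjusted p = 0.000177), and Pitx1 (3.26 ± 0.35), Nr5a2 (2.34 ± 0.33), Klf5 (1.87 ± 0.25), Cdx1 (2.09 ± 0.25) and Elf3 (1.61 ± 0.24) were higher with adjusted p = 0.00224 to 0.00694. In WT the differences of these 5 were 1.96, -0.29, 0.32, 0.55 and 0.14, and the difference between genotypes did not pass for any of them.
Other higher members were Isl1 (1.70 ± 0.30), Cdx2 (1.35 ± 0.36) and Sox9 (1.08 ± 0.26), with adjusted p = 0.0129 to 0.0492. Nkx2-3 (-1.47 ± 0.27), Osr1 (-1.77 ± 0.46), Hnf4g (-2.92 ± 0.78), Pdx1 (-3.08 ± 0.64) and Onecut2 (-5.04 ± 1.29) were lower, at the weak end of the list. Pdx1 marks duodenum and Cdx2 both segments of the intestine. Calls were lost for Cdx2, Sox9, Nkx2-3, Osr1, Hnf4g, Pdx1 and Onecut2 without KO small intestine replicate 2, for Cdx2, Osr1 and Onecut2 without KO small intestine replicate 3, for Isl1, Cdx2, Sox9, Osr1, Hnf4g, Pdx1 and Onecut2 without KO large intestine replicate 2, for Cdx2, Sox9, Nkx2-3, Osr1, Hnf4g, Pdx1 and Onecut2 without KO large intestine replicate 3, for Cdx2 and Hnf4g without either WT small intestine array, for Cdx2, Sox9, Osr1, Hnf4g, Pdx1 and Onecut2 without either WT large intestine array (adjusted p = 0.0521 to 0.239). The count became 11 higher and 4 lower without KO small intestine replicate 2, 7 higher and 5 lower without KO large intestine replicate 2, 8 higher and 4 lower without KO large intestine replicate 3 and 9 higher and 5 lower without either WT large intestine array.

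The Hox genes divided by their place in the clusters. Of 14 measured genes of paralog groups 9 to 13, which pattern the hindgut, 11 were higher in KO large intestine and 0 lower (median 6.19). Of 21 genes of groups 1 to 8, 1 was higher and 9 lower (median -0.92). Hoxb13 read -5.12 and -8.05 on the KO small intestine arrays and 5.91 and 5.93 on the KO large intestine arrays (12.50 ± 0.94, adjusted p = 0.000580), and Hoxd13 read -5.85 and -6.47 on the KO small intestine arrays and 2.21 and 1.69 on the KO large intestine arrays (8.11 ± 0.54, adjusted p = 0.000367). For Hoxb13 and Hoxd13 1 of the 2 KO small intestine arrays was well above background. Hoxa11 was at least 325-fold higher and Hoxa10 at least 128-fold. The bounds for Hoxa13, Hoxd12, Hoxd10 and Hoxd11 were at least 50.9-fold, at least 43.4-fold, at least 35.8-fold and at least 23.4-fold. Hoxb9 (4.93 ± 0.36) and Hoxa9 (4.20 ± 0.22) were higher with adjusted p = 0.000144 to 0.000522, and the antisense transcript Hoxa11os differed by 8.18 ± 0.22. The medians of both paralog sets in WT were 7.01 and 0.37.
The 4 measured Hoxc genes of groups 4 to 8 were lower. Hoxc6 read 2.07 and 2.30 on the KO small intestine arrays and -4.68 and -4.84 on the KO large intestine arrays, 123-fold lower in large intestine (-6.94 ± 0.24, adjusted p = 5.31e-05). Hoxc5 (-5.45 ± 0.46, adjusted p = 0.000899) and Hoxc4 (-4.18 ± 0.40, adjusted p = 0.00142) fell with it. In WT these 3 differed by -5.69, -3.69 and -2.05. Hoxc8 was at least 3.37-fold lower (adjusted p = 0.0300). The anterior genes Hoxa2, Hoxa4, Hoxb2 and Hoxb3 differed by -2.04 ± 0.48, -2.06 ± 0.52, -1.28 ± 0.34 and -0.87 ± 0.23 (adjusted p = 0.0353 to 0.0494). Their WT differences were -0.23, -0.24, 0.51 and 0.74, and the difference between genotypes did not pass for any of the 4. Hoxa7 was higher by 1.77 ± 0.46 (adjusted p = 0.0455). Hoxc11 also passed, but only 1 of the 4 KO arrays, of large intestine, was well above background, so no size is given. Its call was lost under normexp background correction (adjusted p = 0.143). Calls were lost for Hoxa2, Hoxa4, Hoxb2, Hoxb3 and Hoxa7 without KO small intestine replicate 2, for Hoxa2, Hoxa4, Hoxb2, Hoxb3 and Hoxc8 without KO small intestine replicate 3, for Hoxa2, Hoxa4, Hoxb2, Hoxb3, Hoxc8 and Hoxa7 without KO large intestine replicate 2, for Hoxa2, Hoxa4, Hoxb2, Hoxb3, Hoxc8 and Hoxa7 without KO large intestine replicate 3, for Hoxb3 without either WT small intestine array, for Hoxa2, Hoxa4, Hoxb2, Hoxb3, Hoxc8 and Hoxa7 without either WT large intestine array (adjusted p = 0.0539 to 0.230). Over all 35 Hox genes the main counts were 12 higher and 9 lower. Dropping single arrays gave 10 higher and 4 lower without KO small intestine replicate 2, 12 higher and 3 lower without KO small intestine replicate 3, 11 higher and 4 lower without KO large intestine replicate 2, 10 higher and 3 lower without KO large intestine replicate 3 and 11 higher and 4 lower without either WT large intestine array.

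**Figure D2:**
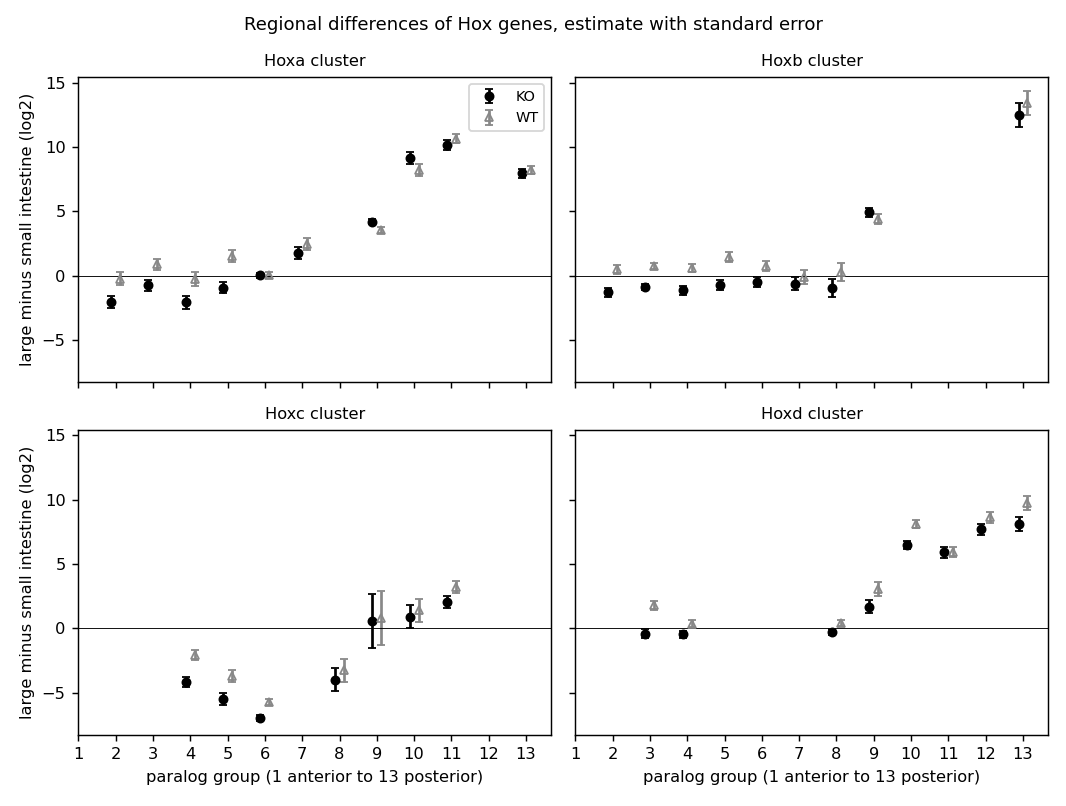
Log2 difference between large and small intestine (vertical axis, estimate with standard error) of Hox genes by paralog group (horizontal axis) in 4 clusters, with KO as filled circles and WT as open triangles. In clusters a, b and d the differences of groups 9 to 13 lie above 0, with Hoxb13 at 12.50 ± 0.94 in KO, and Hoxc4, Hoxc5 and Hoxc6 lie below 0.

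Fat absorption had the largest share of lower members among the 43 lists. Of 23 measured genes 20 were lower in KO large intestine and 0 higher, with a median of -3.51 (-4.16 in WT). Apoc3, an apolipoprotein of triglyceride-rich particles, read 7.39 and 6.84 on the KO small intestine arrays and -0.20 and -0.03 on the KO large intestine arrays (-7.23 ± 0.25, 150-fold lower, adjusted p = 5.31e-05). Apob, the backbone of the chylomicron, differed by -6.21 ± 0.32 (adjusted p = 0.000141), and Mttp, which loads lipid onto it, by -6.92 ± 0.46 (adjusted p = 0.000353). Fabp1, a fatty acid binding protein of enterocytes and hepatocytes, read 7.14 and 6.39 on the KO small intestine arrays and 3.46 and -2.41 on the KO large intestine arrays (-6.24 ± 1.63, adjusted p = 0.0463). The brighter of its large intestine arrays was the one with high Alb. Fabp1 lost its call without KO small intestine replicate 2 or 3, WT small intestine replicate 2 or 3 or WT large intestine replicate 2 or 3 (adjusted p = 0.0611 to 0.139).

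Brush border enzymes and transporters followed. Of 28 genes 15 were lower in KO large intestine and 0 higher (median -1.72, -2.13 in WT). The KO median was -2.76 between the replicate 2 arrays and -0.94 between the replicate 3 arrays. Besides Lct, the neutral amino acid transporter Slc6a19 read 3.80 and 2.72 on the KO small intestine arrays and -2.19 and -1.67 on the KO large intestine arrays (-5.19 ± 0.39, 36.4-fold lower, adjusted p = 0.000580). Alpi, intestinal alkaline phosphatase, differed by -4.12 ± 0.29 (adjusted p = 0.000443).

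Genes by which suckling enterocytes take up and break down milk proteins were also on the small intestine side. Of 20 genes 14 were lower in KO large intestine and 0 higher (median -1.86, -2.30 in WT). Fcgrt, the neonatal Fc receptor that carries maternal IgG, read 7.32 and 6.04 on the KO small intestine arrays and 2.19 and 2.12 on the KO large intestine arrays (-4.53 ± 0.41, 23.0-fold lower, adjusted p = 0.00119). Amn, a subunit of the cubilin receptor, differed by -4.37 ± 0.52 (adjusted p = 0.00322), the lysosomal transporter gene Slc46a3 by -4.30 ± 0.46 (adjusted p = 0.00222) and the cathepsin gene Ctsl by -1.85 ± 0.22 (adjusted p = 0.00330). In fits without 1 array it was 7 lower without KO large intestine replicate 2 and 9 lower without KO large intestine replicate 3.

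Absorption of bile acids, vitamins and minerals was divided between the segments. Over all genes the shares were 8.27% higher and 7.59% lower. Of 19 vitamin, iron and calcium genes 4 were higher and 5 lower. The calcium channel gene Trpv6 read -4.88 and -5.31 on the KO small intestine arrays and 0.06 and 0.07 on the KO large intestine arrays (5.16 ± 0.32, 35.7-fold higher, adjusted p = 0.000280), with 4.94 in WT. Vdr, the vitamin D receptor, was higher by 3.48 ± 0.31 (adjusted p = 0.00113) and S100g, the calcium buffer calbindin, by 5.08 ± 0.56 (adjusted p = 0.00238). The WT differences of Vdr and S100g were 1.63 and 1.03, and the difference between genotypes did not pass for either. The thiamine transporter gene Slc19a3 (-4.42 ± 0.44) and the retinol-binding Rbp2 (-4.98 ± 0.47) fell, with adjusted p = 0.00140 to 0.00171. In the bile acid list of 15 genes, 2 were higher and 3 lower. With 1 array left out the count was 2 higher and 5 lower without KO small intestine replicate 3. The basolateral exporter gene Abcc3 was higher with Slc10a2 (3.26 ± 0.25, adjusted p = 0.000592), while the apical exporter gene Abcc2 (-6.15 ± 0.47, adjusted p = 0.000619) and Fgf15, the hormone by which the ileum restrains bile acid synthesis (-3.58 ± 0.56, adjusted p = 0.00855), were lower. Fgf15 read -3.73 and -2.60 in KO small and -7.33 and -6.15 in KO large intestine, with 1 KO large intestine array well above background, and 0.59 and 1.47 in WT small and -3.97 and -3.36 in WT large intestine. Fabp6 differed by 3.32 ± 3.24 between the KO segments and did not pass (adjusted p = 0.50). It was low on the replicate 2 and high on the replicate 3 array of KO small intestine, and the part of fragment position in these differences was not tested.
Of 15 urea cycle and arginine genes 2 were higher and 4 lower, against 8.27% and 7.59% of all genes. The count became 2 higher and 2 lower without KO small intestine replicate 2, 3 higher and 8 lower without KO small intestine replicate 3, 2 higher and 1 lower without KO large intestine replicate 2, 2 higher and 1 lower without KO large intestine replicate 3 and 2 higher and 1 lower without either WT large intestine array. Cps1, which starts the cycle in suckling enterocytes, differed by -3.09 ± 0.41 (adjusted p = 0.00445) and Ass1, which makes the argininosuccinate intermediate, by -1.66 ± 0.36 (adjusted p = 0.0261). Arg2, the mitochondrial arginase, read -6.12 and -5.24 in KO small and -0.79 and -1.16 in KO large intestine (4.71 ± 0.52, adjusted p = 0.00249), and Arg1, an arginase also made by liver, read -3.58 and -3.21 in KO small and -1.12 and -2.04 in KO large intestine (1.82 ± 0.33, adjusted p = 0.0151). Ass1 lost its call without KO large intestine replicate 2 or 3 or WT large intestine replicate 2 or 3 (adjusted p = 0.0568 to 0.133). Arg1 lost its call without KO small intestine replicate 2 (adjusted p = 0.0644).

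Salt and water transport of the colon lay on the other side. Of 27 genes of the list 16 were higher in KO large intestine and 0 lower (median 1.98, 1.10 in WT). Car2, the second carbonic anhydrase of the list, read 0.36 and 0.31 on the KO small intestine arrays and 6.29 and 6.59 on the KO large intestine arrays (6.11 ± 0.26, 68.9-fold higher, adjusted p = 8.45e-05). Hsd11b2, the enzyme that keeps cortisol-type steroids off the mineralocorticoid receptor, was at least 39.1-fold higher (adjusted p = 0.00222), and the receptor gene Nr3c2 itself was higher by 1.98 ± 0.25 (adjusted p = 0.00397). With Scnn1b these are the steroid-driven sodium genes of the list, in which Scnn1a (1.72 ± 0.51, adjusted p = 0.0645) and Scnn1g (4.83 ± 1.60, adjusted p = 0.0846), the other channel subunits, did not pass. Scnn1g read -4.61 and -8.40 in KO small and -1.52 and -1.82 in KO large intestine. Trpm6, a magnesium channel, differed by 6.51 ± 0.73, Aqp4, a water channel, by 5.80 ± 0.68, Slc9a2, a sodium-proton exchanger, by 4.21 ± 0.50 and Kcnn4, a calcium-activated potassium channel, by 3.20 ± 0.45 (adjusted p = 0.00256 to 0.00564). The sodium pump subunit gene Atp1b1 was higher by 1.53 ± 0.21. Slc26a3, the chloride-bicarbonate exchanger, differed by -0.52 ± 0.85 and did not pass (adjusted p = 0.697). Slc5a8, a short-chain fatty acid transporter, differed by 6.64 ± 1.36 (adjusted p = 0.0224). Aqp8, a water channel, differed by 4.75 ± 1.11 (adjusted p = 0.0339). Slc12a2, the basolateral chloride loader (1.18 ± 0.23), and the phosphate transporter gene Slc20a1 (0.94 ± 0.22) passed with adjusted p = 0.0193 to 0.0342. Calls were lost for Slc5a8 without KO small intestine replicate 2, for Slc5a8, Aqp8 and Slc20a1 without KO small intestine replicate 3, for Slc5a8, Aqp8, Slc12a2 and Slc20a1 without KO large intestine replicate 2, for Slc5a8, Aqp8, Slc12a2 and Slc20a1 without KO large intestine replicate 3, for Aqp8 and Slc20a1 without either WT large intestine array (adjusted p = 0.0525 to 0.148).

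Goblet cell genes, which make and modify mucus, were mostly higher. Of 24 measured genes 19 were higher in KO large intestine and 1 lower (median 2.48, 2.30 in WT). Klk1, a tissue kallikrein, read -2.32 and -1.44 on the KO small intestine arrays and 4.40 and 4.75 on the KO large intestine arrays (6.45 ± 0.33, 87.6-fold, adjusted p = 0.000141). Creb3l4 (3.29 ± 0.19) and Galnt12, which starts O-glycan chains on mucin (3.34 ± 0.26), had adjusted p = 0.000213 to 0.000693. Muc2, the gel-forming mucin, read 1.30 and 2.16 on the KO small intestine arrays and 4.27 and 4.20 on the KO large intestine arrays (2.51 ± 0.35, adjusted p = 0.00599). The secretory lineage factors Atoh1 (3.18 ± 0.34) and Spdef (3.02 ± 0.38) were higher as well (adjusted p = 0.00207 to 0.00385), and Tff3, the trefoil peptide, by 1.04 ± 0.23 (adjusted p = 0.0270). Tff3 lost its call without KO small intestine replicate 3, KO large intestine replicate 2 or 3 or WT large intestine replicate 2 or 3 (adjusted p = 0.0598 to 0.156). Zg16, a lectin of the mucus, read 5.28 and 5.11 in KO small and 7.26 and 7.39 in KO large intestine (2.13 ± 0.26, adjusted p = 0.00339), against 1.66 and 0.99 in WT small and 6.71 and 6.90 in WT large intestine. Its KO difference was smaller than the WT difference by -3.35 ± 0.37 (adjusted p = 0.0450 for the difference between genotypes).

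Other colonic epithelial genes had more higher than lower members. Of 36 genes 18 were higher and 2 lower (median 1.42, 0.89 in WT). Besides Fxyd4 and Retnlb, the gasdermin C genes led the list. Gsdmc4 read -4.06 and -5.43 on the KO small intestine arrays and 2.65 and 3.21 on the KO large intestine arrays, and 1.61 and 2.06 in WT small and 2.07 and 2.31 in WT large intestine. Only the KO small intestine arrays were low, and the difference was 7.67 ± 0.46 in KO (adjusted p = 0.000236) and 0.35 in WT. Gsdmc (5.69 ± 0.32) and Gsdmc3 (7.08 ± 0.56) had WT differences of 0.19 and 0.07. The gasdermin C copies are close in sequence, so that a probe may read more than 1. Saa1 was higher by 6.43 ± 0.47 (7.97 in WT) and the membrane mucin gene Muc4 by 4.45 ± 0.35 (2.70 in WT), with adjusted p = 0.000514 to 0.000693. Guca2b, the secretory peptide uroguanylin, was lower (-2.49 ± 0.29, adjusted p = 0.00283).

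Paneth cell genes lay mostly on the small intestine side. Of 18 genes 10 were lower in KO large intestine and 1 higher (median -2.63, -2.88 in WT). Defa29, an alpha-defensin, read 4.02 and 4.51 on the KO small intestine arrays and -6.47 and -6.97 on the KO large intestine arrays (-10.99 ± 0.65, adjusted p = 0.000228), and 1 of its large intestine arrays was well above background. In WT it was at least 139-fold lower, with neither large intestine array well above background. Defa5 (-7.89 ± 0.66) and Defa20 (-7.11 ± 0.67) fell with adjusted p = 0.000851 to 0.00133. Among defensin genes outside the list Defa42 (-9.70 ± 0.66), Defa-ps1 (-8.48 ± 0.53) and Defa-rs2 (-7.91 ± 0.64) were lower, Defa39 was at least 518-fold lower, Defa25 at least 59.9-fold and Defa4 at least 1494-fold. Alpha-defensin genes are near-identical copies and their probes may share signal, so they are not independent. Defa4 lost its call without KO small intestine replicate 2 or 3 or KO large intestine replicate 2 or 3 (adjusted p = 0.0615 to 0.101). Lyz1, Paneth cell lysozyme, read 5.32 and 5.86 on the KO small intestine arrays and 2.78 and 3.04 on the KO large intestine arrays (-2.68 ± 0.27, adjusted p = 0.00181), against 2.48 and 2.47 in WT small and 1.77 and 1.26 in WT large intestine. Wnt3, the Wnt ligand of Paneth cells, was at least 4.10-fold lower (adjusted p = 0.00142).

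Enteroendocrine genes had members that passed on both sides. Of 29 enteroendocrine genes 7 were higher and 5 lower, against 8.27% and 7.59% of all genes. Cck, the gallbladder-contracting hormone of the proximal gut, read 4.69 and 3.87 on the KO small intestine arrays and 0.87 and 1.56 on the KO large intestine arrays (-3.06 ± 0.42, adjusted p = 0.00516), and it was lower in large intestine like Gip. Pyy, the distal satiety hormone, read -0.16 and 0.79 on the KO small intestine arrays and 4.14 and 4.29 on the KO large intestine arrays (3.90 ± 0.66, adjusted p = 0.0113), and Gcg, the proglucagon gene, was higher by 2.66 ± 0.66 (adjusted p = 0.0396). Neurog3, which starts the endocrine lineage, was higher by 2.02 ± 0.28 (adjusted p = 0.00525), against -0.56 in WT. For Neurog3 the difference between genotypes did not pass. The lineage factor genes Isl1, Lmx1a and Fev were higher by 1.70 ± 0.30, 1.33 ± 0.26 and 0.97 ± 0.26 (adjusted p = 0.0129 to 0.0484). Ghrl (ghrelin), Nts (neurotensin) and the granule gene Scg2 were lower (-2.36 ± 0.44, -2.24 ± 0.48 and -1.61 ± 0.37, adjusted p = 0.0164 to 0.0320). Insl5, a colonic L cell hormone, differed by 3.14 ± 1.25 and did not pass (adjusted p = 0.130). Calls were lost for Pyy, Gcg, Fev, Ghrl and Nts without KO small intestine replicate 2, for Fev, Nts and Scg2 without KO small intestine replicate 3, for Gcg, Isl1, Lmx1a, Fev, Ghrl, Nts and Scg2 without KO large intestine replicate 2, for Pyy, Gcg, Lmx1a, Fev, Ghrl and Scg2 without KO large intestine replicate 3, for Fev without either WT small intestine array, for Gcg, Fev, Nts and Scg2 without either WT large intestine array (adjusted p = 0.0553 to 0.185). Dropping single arrays gave 2 higher and 2 lower without KO large intestine replicate 2, 2 higher and 4 lower without KO large intestine replicate 3 and 5 higher and 3 lower without either WT large intestine array.
Of 14 tuft cell genes 0 were higher and 4 lower, against 8.27% and 7.59% of all genes. Sucnr1, the succinate receptor, was at least 40.1-fold lower (adjusted p = 0.00946). Sucnr1 lost its call without KO small intestine replicate 2 (adjusted p = 0.0504). In fits without 1 array it was 0 lower without KO small intestine replicate 2, 2 lower without KO large intestine replicate 2, 1 lower without KO large intestine replicate 3 and 1 lower without either WT large intestine array.

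**Figure D3:**
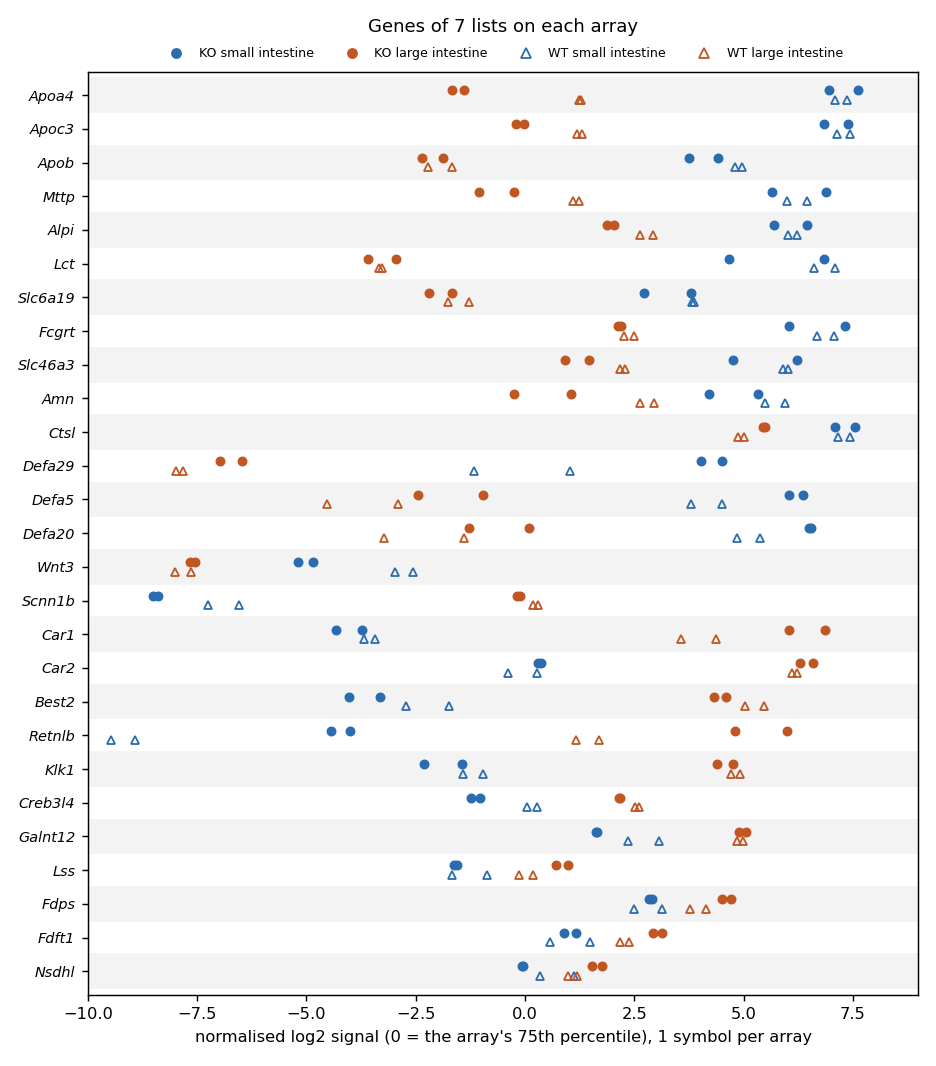
Normalised log2 signal (horizontal axis, 0 is the array's 75th percentile) of genes from 7 lists, 1 symbol per array, with KO as filled circles and WT as open triangles, small intestine in blue and large intestine in orange. Apoa4 lies at 7.61 and 6.95 in KO small and -1.40 and -1.67 in KO large intestine, and Car1 has the opposite order.

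Of 21 genes of cholesterol synthesis and uptake 15 were higher in KO large intestine and 0 lower (median 1.72, 1.18 in WT). Lss, which closes the sterol rings, read -1.55 and -1.62 on the KO small intestine arrays and 0.71 and 0.99 on the KO large intestine arrays (2.44 ± 0.30, 5.41-fold, adjusted p = 0.00352). With 1 array left out the count was 4 higher without KO small intestine replicate 2, 9 higher without KO large intestine replicate 2 and 1 higher without KO large intestine replicate 3.

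P450 and conjugating enzymes had 14 of 41 members higher and 2 lower in KO large intestine. The list's median was 1.13 in KO and -0.13 in WT. Sult1c2, a sulfotransferase, read -6.94 and -6.27 on the KO small intestine arrays and -0.76 and -0.08 on the KO large intestine arrays (6.18 ± 0.46, adjusted p = 0.000538), with 1 small intestine array well above background and 1.35 in WT. Gstm3, a glutathione transferase, read -1.77 and -1.10 on the KO small intestine arrays and 2.67 and 2.56 on the KO large intestine arrays (4.05 ± 0.27, adjusted p = 0.000379), with 0.60 in WT, and Aldh1a7, an aldehyde dehydrogenase, differed by 3.47 ± 0.23 in KO and 0.08 in WT. In WT both segments had Gstm3 and Aldh1a7 near the KO large intestine level (1.77 and 1.41 in WT small and 2.27 and 2.12 in WT large intestine for Gstm3). Cyp2c55, a colonic P450, differed by 4.76 ± 0.37 in KO and 5.78 in WT. The count became 10 higher and 1 lower without KO large intestine replicate 3.

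Cell cycle genes had 7 of 30 members higher in KO large intestine and 0 lower (median 0.69, 0.12 in WT). The shifts were small, as for the spindle gene Nusap1 (0.72 and 0.88 in KO small and 1.69 and 1.79 in KO large intestine, 0.94 ± 0.18, adjusted p = 0.0177). Nusap1 lost its call without KO small intestine replicate 2 or KO large intestine replicate 2 or 3 (adjusted p = 0.0523 to 0.108). Dropping single arrays gave 0 higher without KO small intestine replicate 2, 1 higher without KO large intestine replicate 2, 0 higher without KO large intestine replicate 3 and 1 higher without either WT large intestine array. Over all genes the shares were 8.27% higher and 7.59% lower. Of 23 crypt and stem cell genes 4 were higher and 2 lower, with a share of lower members near that of all genes. In fits without 1 array it was 5 higher and 1 lower without KO small intestine replicate 3, 2 higher and 2 lower without KO large intestine replicate 2, 1 higher and 1 lower without KO large intestine replicate 3, 4 higher and 4 lower without either WT small intestine array and 3 higher and 1 lower without either WT large intestine array. Niche signals of the Wnt, BMP and hedgehog pathways were lower more often, with 11 of 47 genes lower and 3 higher (median -0.45, 0.45 in WT). The share of higher niche genes was below that of all genes. Rspo2, which potentiates Wnt receptors, differed by -1.88 ± 0.28 (adjusted p = 0.00758, 1.0 in WT), the BMP ligand gene Bmp7 by -2.11 ± 0.29 (adjusted p = 0.00573), and Fgf10, a mesenchymal growth factor of the colon, was higher (1.74 ± 0.24, adjusted p = 0.00520). With 1 array left out the count was 3 higher and 7 lower without KO small intestine replicate 3 and 1 higher and 4 lower without KO large intestine replicate 3.

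Markers of cells other than epithelium were compared in the same fragments. Of 18 endothelial and lymphatic genes 12 were lower in KO large intestine and 0 higher, with a median of -1.19 and -0.23 in WT. The summed level of the list was 6.38 and 6.17 in KO small and 5.07 and 5.04 in KO large intestine. Sox17, a factor of arterial endothelium, read 0.86 and 0.67 on the KO small intestine arrays and -0.82 and -0.75 on the KO large intestine arrays (-1.55 ± 0.24, adjusted p = 0.00821), and Cdh5, the junction cadherin of endothelium, differed by -1.11 ± 0.19 (adjusted p = 0.0116). Cdh5 lost its call without KO large intestine replicate 3 (adjusted p = 0.0751). The count became 6 lower without KO small intestine replicate 2, 5 lower without KO large intestine replicate 2 and 1 lower without KO large intestine replicate 3.
Smooth muscle, by contrast, had 1 of 19 members higher and 0 lower (5.26%, against 15.9% of all genes), with a median of -0.22. The list's summed level was 9.89 and 10.06 in KO small and 9.88 and 9.78 in KO large intestine. In WT 10 of the 19 were higher and 0 lower, with a median of 1.29. The WT summed level was 9.25 and 8.47 in small and 9.88 and 9.99 in large intestine. The member that passed in KO was Actc1, a muscle actin (2.92 ± 0.48, adjusted p = 0.0107). Actc1 lost its call without KO small intestine replicate 2 or KO large intestine replicate 2 (adjusted p = 0.0522 to 0.0525). Enteric neuron genes had 3 of 23 lower members and glia 3 of 12, with 0 higher in both. The fibroblast list had 4 of 21 members lower and 0 higher. The medians of these 3 lists were -0.88, -1.27 and -0.58 in KO and 1.28, 0.77 and 0.75 in WT. The difference between genotypes was not tested for the lists, and it passed for 0 of their single genes.

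Immune lists pointed in different directions. Over all genes the shares were 8.27% higher and 7.59% lower. Of 21 T and NK cell genes 8 were higher in KO large intestine and 1 lower (median 0.54, -0.29 in WT). Cd3g, a chain of the T cell receptor complex, read -4.95 and -4.78 on the KO small intestine arrays and -1.84 and -2.46 on the KO large intestine arrays (2.72 ± 0.30, adjusted p = 0.00243), while WT arrays read -2.17 and -1.53 in WT small and -1.81 and -1.82 in WT large intestine. Cd3d differed by 3.37 ± 0.44 (adjusted p = 0.00452). The lower member was Cd4 (-2.98 ± 0.28, adjusted p = 0.00130), whose WT difference was -3.59 and whose KO difference was -1.60 over the mean of its 2 probes. The 2 probes thus did not give the same difference, and -2.98 is that of the brighter probe alone. The list's summed level ran opposite to this count, at 6.45 and 5.92 in KO small and 4.06 and 3.88 in KO large intestine. Cd4 was its brightest member, with 6.37 and 5.79 in KO small and 3.09 and 3.11 in KO large intestine over that brighter probe. Dropping single arrays gave 4 higher and 1 lower without KO small intestine replicate 2, 5 higher and 1 lower without KO large intestine replicate 2 and 5 higher and 1 lower without either WT large intestine array. Macrophage and dendritic cell genes had 6 of 21 lower and 1 higher. Csf1r, the receptor of macrophage growth factor, differed by -2.37 ± 0.29 (adjusted p = 0.00338), and Cd14, the endotoxin co-receptor, was higher by 2.40 ± 0.21 (adjusted p = 0.00113). In fits without 1 array it was 1 higher and 3 lower without KO large intestine replicate 2 and 1 higher and 3 lower without KO large intestine replicate 3. Among 29 inflammatory genes 7 were higher and 7 lower. Il18, a cytokine of epithelium, differed by 3.28 ± 0.30 (adjusted p = 0.00120). Ccl28, a mucosal chemokine, read -6.37 and -6.34 on the KO small intestine arrays and 0.59 and 1.01 on the KO large intestine arrays (7.16 ± 0.24, adjusted p = 5.31e-05), against -1.77 and -1.44 in WT small and 0.86 and 0.56 in WT large intestine. For Ccl28 1 of the KO small intestine arrays was well above background. With 1 array left out the count was 6 higher and 1 lower without KO small intestine replicate 2, 6 higher and 1 lower without KO large intestine replicate 2, 5 higher and 3 lower without KO large intestine replicate 3 and 6 higher and 3 lower without either WT large intestine array.

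Claudin and tight junction genes other than Cldn7 had 6 of 38 members higher and 3 lower in KO large intestine (median 0.42). The list passed in 23.7%, against 15.9% of all genes (8.27% higher and 7.59% lower), so its lower share was near that of all genes. Cldn3, a sealing claudin, read 3.87 and 3.96 on the KO small intestine arrays and 5.84 and 6.25 on the KO large intestine arrays (2.13 ± 0.28, 4.38-fold, adjusted p = 0.00445), with 1.32 in WT. Cldn9 was higher by 1.79 ± 0.27 (adjusted p = 0.00737) and the scaffold gene Tjp3 by 1.59 ± 0.26 (adjusted p = 0.0108). Cldn19, a claudin known from kidney and nerve, was lower (-4.65 ± 0.81, adjusted p = 0.0129), with 1 large intestine array well above background. Marveld3, Spint2 and Cldn23 were higher by 1.83 ± 0.32, 1.51 ± 0.33 and 1.48 ± 0.35 (adjusted p = 0.0132 to 0.0345), and Jam2 (-1.13 ± 0.21) and the endothelial claudin gene Cldn5 (-0.88 ± 0.23) were lower (adjusted p = 0.0172 to 0.0450). Calls were lost for Cldn19, Cldn23, Jam2 and Cldn5 without KO small intestine replicate 2, for Spint2, Cldn23 and Cldn5 without KO small intestine replicate 3, for Marveld3, Cldn23 and Cldn5 without KO large intestine replicate 2, for Tjp3, Cldn19, Marveld3, Spint2, Cldn23, Jam2 and Cldn5 without KO large intestine replicate 3, for Cldn5 without either WT small intestine array, for Spint2, Cldn23 and Cldn5 without either WT large intestine array (adjusted p = 0.0522 to 0.179). The count became 7 higher and 0 lower without KO small intestine replicate 2 and 3 higher and 0 lower without KO large intestine replicate 3.

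The remaining lists are given by their counts. Exocrine pancreas had 4 of 20 higher and 0 lower, with a summed level of 5.53 and 5.40 in KO small and 7.32 and 7.66 in KO large intestine. The list holds the mucus lectin gene Zg16, which is among the 4 and made up most of the summed level on each KO array. Its median level was -4.13 and -4.30 in KO small and -4.06 and 0.38 in KO large intestine, so only KO large intestine replicate 3 stood higher. Liver had 1 higher and 2 lower of 17, stomach 2 and 4 of 13, and mesothelium and mesenteric fat 2 and 3 of 15. Interstitial cells of Cajal had 1 and 2 of 8, neutrophils 1 and 1 of 18, B and plasma cells 1 and 0 of 11 and mast cells 0 and 1 of 11. Red cell genes had 0 and 0 of 8, squamous and anal epithelium 1 and 0 of 11, and urogenital neighbours 2 and 0 of 5. Metalloproteinases and inhibitors had 1 and 2 of 21, fatty acid oxidation 2 and 1 of 22, immediate early genes 1 and 2 of 20 and MHC genes 0 and 1 of 16. The shares over all genes were 8.27% higher and 7.59% lower.

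The regional difference itself was compared between genotypes. It differed for 28 of 20133 genes (0.139%), larger toward large intestine in KO for 19 and toward small intestine for 9. At an unadjusted p under 0.05 there were 5193. The count rests on single arrays: it was 937 without KO small intestine replicate 2, 10 without KO small intestine replicate 3, 15 and 53 without KO large intestine replicate 2 and 3, and 1 without WT small intestine replicate 3 or either WT large intestine array. It was 4 over genes well above background on all 4 KO arrays. For genes not among the 28, such as Lyz1, Rspo2 and Sult1c2, the difference between genotypes did not pass. Their KO and WT values are set side by side above as reference only. Olfm4, a glycoprotein of crypt base cells, read -4.64 and -5.05 on the KO small intestine arrays and -6.78 and -6.98 on the KO large intestine arrays, and 0.18 and 0.47 in WT small and -9.27 and -9.27 in WT large intestine. It was lower in large intestine in both genotypes, with a difference of -2.03 ± 0.22 in KO and by at least 182-fold in WT, where neither large intestine array was well above background. For Olfm4 1 KO large and for Ms4a12 1 KO small intestine array was well above background. Acer1, a ceramidase, read -3.11 and -3.31 on the KO small intestine arrays and 3.14 and 3.12 on the KO large intestine arrays and 0.09 and 0.10 in WT small and 2.58 and 2.64 in WT large intestine, so that KO small intestine was lowest and WT small intestine lay between. Ms4a12 (5.28 ± 0.22 in KO, 0.62 in WT) and Gsdmcl-ps also had their lowest arrays in KO small intestine. Gsdmcl-ps was not well above background on the KO small intestine arrays and at least 51.0-fold higher in KO large intestine, against a difference of 1.04 in WT. Mup20, a major urinary protein of a family with near-identical copies, ran the other way, with -3.31 and -2.93 in KO small and -6.83 and -6.87 in KO large intestine and -7.46 and -7.33 in WT small and -5.98 and -5.79 in WT large intestine. The dimmest signals counted as well above background on the WT small intestine arrays were -7.245 and -6.658. Mup20 read below both, and on KO large intestine replicate 3 it read below that array's limit of -6.836. Its WT difference therefore does not measure a size. Klk15, a kallikrein-type protease, was higher in large intestine in both genotypes, at least 1.77-fold in KO and at least 91.2-fold in WT, with neither small intestine group well above background. Under normexp background correction its KO call was lost (adjusted p = 0.0695).

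**Figure D4:**
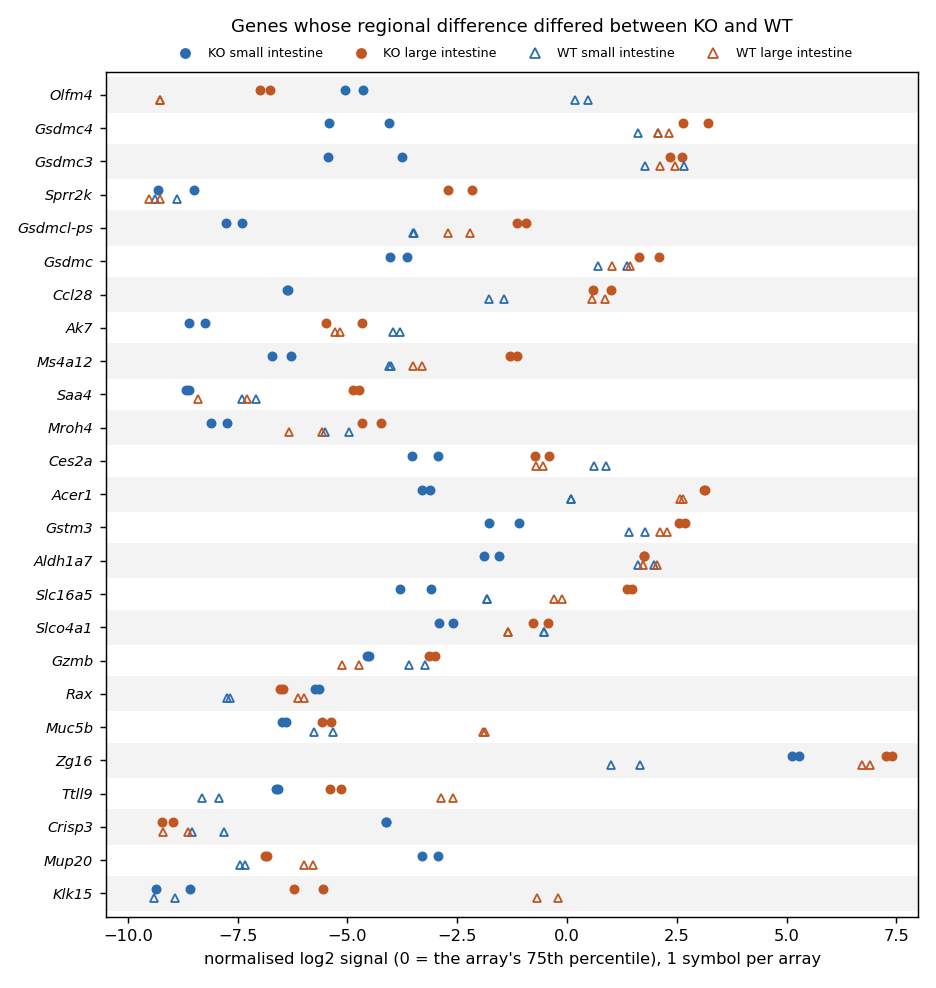
Normalised log2 signal (horizontal axis) of the 25 genes with symbols other than predicted loci whose regional difference differed between KO and WT, 1 symbol per array, with KO as filled circles and WT as open triangles, small intestine in blue and large intestine in orange. For Gsdmc4, Gsdmc3 and Acer1 the KO small intestine arrays stand to the left of the other 6, and for Olfm4 the WT small intestine arrays stand to the right.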

How the data were processed

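RNA of 8 fragments was hybridised with Cy3 to Agilent 60K expression arrays. Per the file headers, Feature Extraction 10.7.3.1 made the deposited scanner intensities (processed signal, background subtracted). The series' value table, deposited as a signal per probe whose normalization is not given in the sources used here, correlated at 0.991 to 0.995 with the same arrays' intensities (column medians 158.06 to 160.06) and served as an alternative. The submitters' processing notes name R 3.3.0.

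Intensities of 59305 non-control spots were divided by the array's 75th percentile and log2 taken. Spots flagged as outliers were dropped, spots of a probe were averaged, and a probe was kept where both arrays of some group read it well above background. The brightest probe stood for a gene, 20133 in all. Names came from RefSeq tables by accession or symbol, while 2670 probes keep the symbol printed in the scanner files. Group means of all 8 arrays were fitted in limma 3.58.1 (R 4.3.3, 4 residual and 2.72 prior degrees of freedom) with Benjamini-Hochberg adjustment, and the scripts were tested on simulated data. Probe positions are mm9, as in the files.

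Named genes were the 12 highest and 12 lowest differences measured on all 4 KO arrays, the 8 in each direction off in 1 segment, Cldn7, up to 4 per list, every member that passed of the Hox, regional factor, claudin, hormone and colon transport lists, and those that differed between genotypes. Fabp1, Fabp6, Xist, Ddx3y, Eif2s3y, Scnn1a, Scnn1g, Slc26a3, Muc2, Tff3, Atoh1, Spdef, Guca2b, S100g, Lyz1, Muc4, Insl5 and Gzmb were chosen after their values were seen. Some genes that this rule names are not reported here. These, the 43 gene lists and the members were chosen with earlier results of these data known.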

Additional observations from a re-analysis of the deposited data

Results flagged for a closer look

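The regional difference (large minus small intestine) differed between KO and WT in the limma test of the difference itself for the 25 genes below, with adjusted p between 0.00187 and 0.0486. Each value is the KO difference minus the WT difference on the log2 scale, with 2 arrays per group behind every mean. Gasdermin C copies, whose probes may share signal, had larger differences in KO: Gsdmc4 by 7.32 (7.67 in KO, 0.35 in WT), Gsdmc3 by 7.01 (7.08 in KO, 0.07 in WT), Gsdmc by 5.49 (5.69 in KO, 0.19 in WT) and Gsdmcl-ps by 5.51. Among secreted and cornified-envelope genes, Ccl28 by 4.84 (7.16 in KO, 2.32 in WT), Sprr2k by 6.72 and Saa4 by 4.43 stood further toward large intestine in KO. Enzymes moved in the same direction, with Acer1 by 3.82 (6.34 in KO, 2.52 in WT), Ces2a by 4.05 (2.67 in KO, -1.38 in WT), Aldh1a7 by 3.39 (3.47 in KO, 0.08 in WT), Gstm3 by 3.45 (4.05 in KO, 0.60 in WT) and Ak7 by 4.68. Membrane proteins and transporters included Ms4a12 by 4.65 (5.28 in KO, 0.62 in WT), Slco4a1 by 2.99 (2.16 in KO, -0.83 in WT) and Slc16a5 by 3.25 (4.87 in KO, 1.62 in WT). Of the remaining genes above 0, Olfm4 by 7.56 was lower in large intestine in both genotypes, the granzyme gene Gzmb by 2.95 (1.45 in KO, -1.51 in WT) had opposite signs, and Mroh4 by 4.20 was higher in KO alone. Below 0 were Mup20 by -5.24 (-3.73 in KO, 1.51 in WT), Crisp3 by -4.25 and Rax by -2.46, which were lower in large intestine in KO. The mucus genes Zg16 by -3.35 (2.13 in KO, 5.48 in WT) and Muc5b by -2.70 (0.96 in KO, 3.66 in WT), with Klk15 by -5.65 and Ttll9 by -4.04 (1.34 in KO, 5.38 in WT), were higher in large intestine in both genotypes and less so in KO. Of the 3 probes of Ttll9, 2 had the same sign, and its KO difference was 0.21 over the mean of the probes (adjusted p = 0.638) and 0.45 under normexp background correction (adjusted p = 0.105). Where a gene counts as detected by any of its probes, the values of 9 genes rest on readings not well above background in 1 or more groups. They do not measure a size. Neither small intestine group was well above background for Klk15, which was higher in large intestine by at least 1.77-fold in KO and 91.2-fold in WT. In WT large intestine Olfm4 was not well above background and was lower by at least 182-fold. KO small intestine was not well above background for Gsdmcl-ps, Sprr2k, Saa4, Mroh4 and Ak7, with bounds of 51.0, 19.2, 3.74, 4.80 and 3.08-fold in KO. Sprr2k and Saa4 were also not well above background in either WT segment, and Crisp3 was well above background in KO small intestine alone (at least 7.71-fold lower in KO large intestine). Rax was not well above background in WT small intestine (at least 1.86-fold higher in WT large intestine). The probe used for Mup20 read below the dimmest signal counted as well above background on both WT small intestine arrays. Its WT difference and its -5.24 therefore do not measure a size either, though Mup20 is not counted among the 9. The number of genes with such a difference was between 1 and 937 when 1 array was left out, so that membership rests on single arrays.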

How the results depend on the processing

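Under normexp background correction, quantile scaling, a percentile over probes detected on all 8 arrays, the deposited table, both filters on dim probes, ignored flags, probe means and a trended prior, the number of genes that passed between the KO segments stayed within 1.5 times of 3193 (2314 to 3805), and 2267 or more of the 3193 genes passed again, with 2745 of the 2746 still tested over probes above background on all 4 KO arrays. The 4 KO arrays alone, with 2 residual degrees of freedom, gave 1574 genes (849 higher, 725 lower). With 1 array left out the counts ran from 1201 to 3062 in KO (717 to 1477 higher, 484 to 1595 lower), from 901 to 4972 in WT, from 1 to 937 for the difference between genotypes and from 201 to 329 for list members, of which 333 passed with all arrays. An array left alone in its group was assumed to vary like the others. The difference between genotypes had 15 genes without the background filter and 4 over probes above background on all 4 KO arrays. Cldn7 ran from -0.0918, without KO small intestine replicate 3, to 1.17 without KO small intestine replicate 2. Fabp6, at 3.32, ran from -1.10 without KO small intestine replicate 2 to 7.74 without replicate 3. Slc26a3, at -0.52, ran from -1.61 without KO small intestine replicate 3 to 0.57 without replicate 2, with 0.49 without KO large intestine replicate 2. The cause of these changes was not tested. Under normexp correction the calls of Hoxc8, Hoxc11, Fev, Klk15 and Ttll9 were lost (adjusted p = 0.0695 to 0.143). Over the mean of 2 probes the KO difference was 3.17 for Muc4, 3.23 for Gstm3, -2.85 for Mup20, -9.82 for Defa5 and 12.23 for Car1. Of 240 named genes that passed, 52 and 36 lost the call without KO small intestine replicate 2 and 3, 56 and 81 without KO large intestine replicate 2 and 3.

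With the replicate number as a block 3551 genes passed in KO (1871 higher, 1680 lower), 3851 in WT, 19 for the difference between genotypes and 332 list members. In the 4 KO arrays alone with the replicate block 1443 passed (781 higher, 662 lower), with 216 list members. The labels do not state that a number pairs the segments, and the replicate 3 minus 2 differences of KO small and KO large intestine correlated across genes at 0.0563 (0.217 in WT). The sex-linked genes changed alike in KO small and KO large intestine (3.83 and 4.17 for Xist, -9.64 and -9.97 for Ddx3y). Whether 1 pup gave both segments was not tested.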
